A study of Arabidopsis thaliana with 6 samples.

Results

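The genes RCA, PRK, SBPASE, PWD and DPE1 encode enzymes of carbon fixation and starch turnover in the chloroplast. The members were the probe sets whose annotation names 1 of these 5 symbols and no other gene. Such probe sets numbered 6 of the 22746 plant probe sets on the array, because the symbol PWD stands for 2 loci, AT5G26570 and AT4G24450. RCA (AT2G39730), PRK (AT1G32060) and SBPASE (AT3G55800) formed the fixation side, and PWD (AT5G26570) and DPE1 (AT5G64860) formed the starch breakdown side. The gene table used here also lists AT4G24450 under the synonym ATGWD2, so this probe set is called PWD (AT4G24450) and was kept apart from PWD, which stands for AT5G26570 below.

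In the Calvin-Benson cycle, Rubisco joins carbon dioxide to ribulose bisphosphate. Rubisco activase, encoded by RCA, clears inhibitory sugar phosphates from Rubisco, while SBPASE (sedoheptulose bisphosphatase) and PRK (phosphoribulokinase) act in the steps that regenerate the acceptor. Leaves store part of the fixed carbon as starch by day and break it down at night. PWD (phosphoglucan, water dikinase) phosphorylates glucans at the granule surface and so opens starch to amylases, and DPE1 (disproportionating enzyme) recycles the short maltooligosaccharides left by starch breakdown.

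Aerial parts of 30-day-old Arabidopsis thaliana plants, ecotype Col-0, were compared between wild type (3 arrays) and the line epiF3 (3 arrays), all grown with 12 h of light a day at 22 degrees. RNA was taken plant by plant, and titles number the replicates of each group from 1 to 3. Titles and source names call the second group epiF3, whereas the description of the same samples speaks of albino plants of an msh1 mutant. How these names relate, and at what hour plants were taken, is not settled by the labels. Values are log2 signals of Affymetrix probe sets after RMA (robust multi-array averaging), and a change is epiF3 minus wild type on that scale.

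Of the green leaf markers, LHCB4.1, which encodes a photosystem II antenna protein, was the 1 of 9 listed genes measured under a name, at 12.11 ± 0.11 in wild type and 11.85 ± 0.13 in epiF3 (SD, n = 3 each). It was lower on every epiF3 array than on any wild-type array, by 0.02 at the nearest, with a change of -0.26 (limma adjusted p = 0.542). Of 4 root markers 2 were measured, PYK10 between 3.78 and 4.51 and the root hair gene EXPA7 between 2.19 and 2.63 over the 6 arrays. AMS, an anther gene and the 1 of 6 flower and seed markers measured, lay between 2.16 and 2.35. Array medians lay between 4.08 and 4.32. The 18 probe sets of hybridization controls, foreign transcripts added to each sample, averaged 7.11 to 8.21 on the wild-type arrays, 8.19 and 8.36 on epiF3 replicates 1 and 2, and 10.5 on epiF3 replicate 3. Results for the members are therefore also given without epiF3 replicate 3.

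Signals of the fixation genes overlapped between the groups, whereas those of the starch breakdown genes PWD and DPE1 were lower on every epiF3 array than on any wild-type array. PWD stood at 58.4% of its wild-type signal in epiF3 (95% interval 43.3% to 78.6%) and DPE1 at 65.0% (48.5% to 87.1%). None of the 6 probe sets passed an adjusted p of 0.05 in limma, with adjustment over all 22746 plant probe sets, of which 0.598% passed. At an unadjusted p under 0.05 in limma, 2 of 6 passed (PWD and DPE1), against 10.9% of all probe sets, and 5.51% of all probe sets passed in the lower direction. Groups that did not overlap and were lower in epiF3 were found for 2 of 6 members, against 7.11% of all probe sets. The members were proposed with earlier results of these data known, so these counts describe them and are no independent evidence of a direction.

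**Figure D1:**
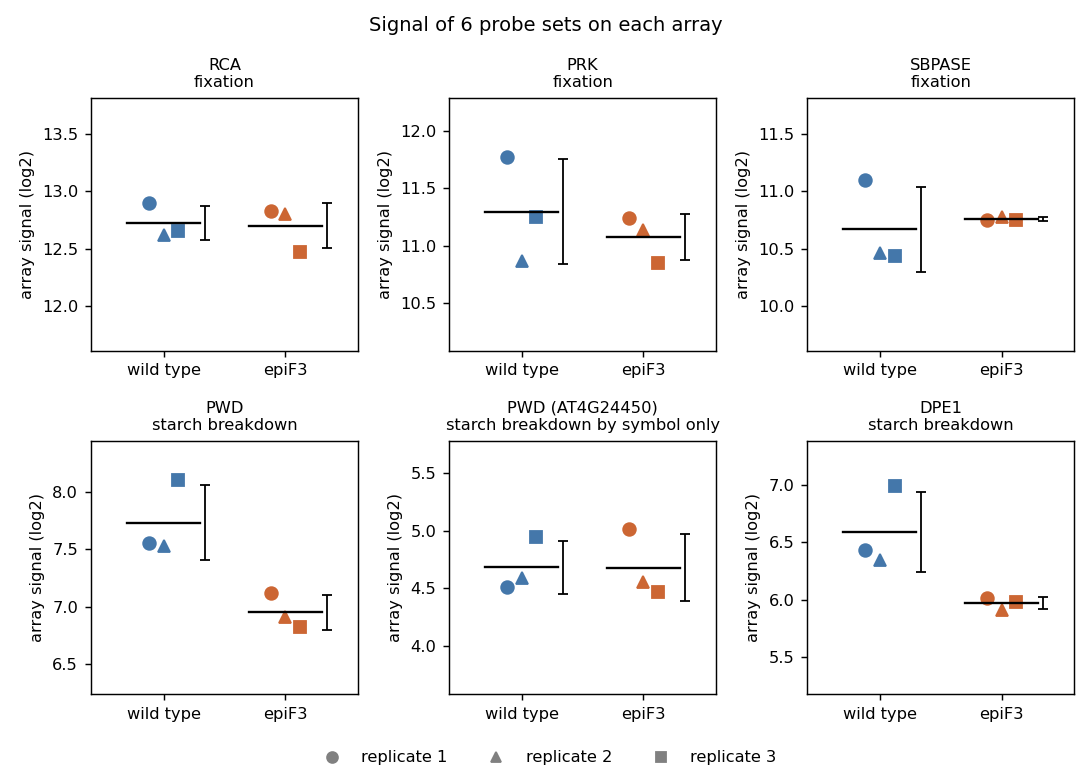
Log2 array signal (vertical axis, the same span in each panel) of the 6 probe sets on each array, with wild type at left and epiF3 at right. Symbols mark replicates 1 to 3, bars the group mean and whiskers the SD (n = 3). For PWD and DPE1 the groups are apart, and for the other 4 probe sets they overlap.

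RCA signals on wild-type replicates 1 to 3 were 12.90, 12.62 and 12.65, and on epiF3 replicates 1 to 3 they were 12.83, 12.80 and 12.47. The highest value lay in wild type and the lowest in epiF3, and epiF3 replicates 1 and 2 lay between wild type replicate 1 and the other wild-type arrays. The group means were 12.73 ± 0.15 and 12.70 ± 0.20 (SD, n = 3 each), a change of -0.02 (standard error 0.15, limma adjusted p = 0.969). The 95% interval of the change ran from -0.38 to 0.33. RCA was the brightest plant probe set on all 3 epiF3 arrays and on wild type replicate 1, and 2 probe sets were brighter on each of wild type replicates 2 and 3. Near the top of the range a difference in transcript level can be compressed, and this was not tested. RefSeq lists 3 transcripts of RCA, and the probe set gives 1 value for the gene.

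PRK signals were 11.77, 10.87 and 11.25 on wild-type replicates 1 to 3 and 11.24, 11.14 and 10.85 on epiF3 replicates 1 to 3. Wild type held the highest value, and its lowest was close to that of epiF3. The change of -0.22 (standard error 0.23, limma adjusted p = 0.754) was smaller than the wild-type SD of 0.45. Its 95% interval, -0.76 to 0.32, spans from a decrease to 59.0% of the wild-type signal to an increase to 124.8%.

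SBPASE signals were 11.10, 10.46 and 10.44 on wild-type replicates 1 to 3, and 10.74, 10.77 and 10.75 on epiF3 replicates 1 to 3. All 3 epiF3 values lay between the wild-type extremes. The SD was 0.37 in wild type and 0.016 in epiF3 (n = 3 each), and no test of that difference in spread was made. The change was 0.09 (standard error 0.19, limma adjusted p = 0.885, 95% interval -0.35 to 0.53).

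The wild-type plant of replicate 1 had the highest wild-type signal for each of the 3 fixation genes. Relative to each gene's wild-type mean, their average was 0.36 there, -0.24 on replicate 2 and -0.11 on replicate 3. On epiF3 replicates 1 to 3 it was 0.04, 0.01 and -0.21, within the wild-type range. The direction of each fixation gene's change rested on single arrays: PRK had a change of 0.02 without wild type replicate 1, SBPASE one of -0.01 without wild type replicate 2, and RCA one of 0.09 without epiF3 replicate 3. Without epiF3 replicate 3, PRK had a change of -0.11 and SBPASE one of 0.09.

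PWD signals were 7.55, 7.53 and 8.10 on wild-type replicates 1 to 3 and 7.12, 6.91 and 6.82 on epiF3 replicates 1 to 3. The lowest wild-type value exceeded the highest epiF3 value by 0.41, and wild type replicate 3 stood above the other wild-type arrays by more than that. The mean was 7.73 ± 0.33 in wild type and 6.95 ± 0.15 in epiF3 (SD, n = 3 each), a change of -0.78 (standard error 0.19). The limma p was 0.00322 unadjusted and 0.147 adjusted over all probe sets. An exact two-sided permutation test over the 6 arrays gave p = 0.1, the smallest that 3 against 3 can give.

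DPE1 signals were 6.43, 6.35 and 6.99 on wild-type replicates 1 to 3. On epiF3 replicates 1 to 3 they were 6.02, 5.91 and 5.98. As for PWD, wild type replicate 3 was highest and the groups did not overlap, with a gap of 0.33 between them. The mean was 6.59 ± 0.35 in wild type and 5.97 ± 0.05 in epiF3 (SD, n = 3 each), a change of -0.62 (standard error 0.18). The limma p was 0.00957 unadjusted and 0.237 adjusted, and the exact two-sided permutation p was again the smallest possible, 0.1.

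PWD and DPE1 varied in parallel among the wild-type arrays, less so among the epiF3 arrays. Taken relative to its wild-type mean, the difference between their log2 signals stayed between -0.02 and 0.04 on the wild-type arrays. It was -0.03, -0.14 and -0.30 on epiF3 replicates 1 to 3, so the signals moved apart most on epiF3 replicate 3. Likeness between probe sets was measured as the root mean square difference of their log2 signals over the 6 arrays after each was centred on its own mean. By that measure DPE1 ranked 4 of 13512 probe sets in likeness to PWD, with a difference of 0.11, and PWD ranked 7 of 13512 in likeness to DPE1. The measure includes the change between the groups, and both genes were proposed with earlier results known. These ranks are therefore a description and no independent evidence of likeness. RCA, PRK and SBPASE were at 0.45, 0.43 and 0.56 from PWD, at ranks 4690, 3952 and 10040 of 13512. The distances of RCA and PRK were thus smaller than those of most probe sets.

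Without epiF3 replicate 3, the array with the highest hybridization controls, the change was -0.71 for PWD and -0.63 for DPE1. With the level of those controls as a covariate it was -0.79 for PWD and -0.76 for DPE1, with limma adjusted p of 0.562 and 0.534. The controls averaged 7.11 to 8.21 on wild-type arrays and 8.19 to 10.5 on epiF3 arrays. This fit therefore cannot cleanly separate the control level from the line. Leaving out wild type replicate 3 brought the changes to -0.59 for PWD and -0.42 for DPE1. In array data from whole aerial parts, fewer cells that express a gene and less RNA per cell cannot be told apart.

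**Figure D2:**
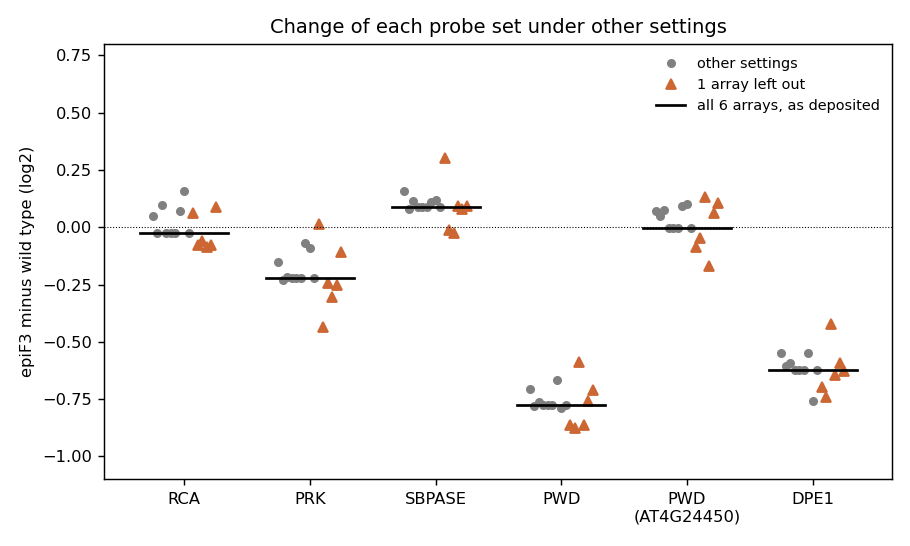
Change of each probe set (epiF3 minus wild type, log2, vertical axis) with all 6 arrays as deposited (bar), with 1 array left out (triangles) and under the other settings (grey points). PWD and DPE1 stay below 0 throughout, between -0.88 and -0.42, whereas the points of RCA, PRK, SBPASE and PWD (AT4G24450) lie on both sides of 0. Because the groups do not overlap for PWD and DPE1, their triangles could only lie below 0. Some grey points equal the bar because their setting does not alter the estimate.

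The other locus that carries the symbol PWD had nearly the same mean in each group. PWD (AT4G24450) was at 4.51, 4.59 and 4.94 on wild-type replicates 1 to 3 and at 5.02, 4.56 and 4.47 on epiF3 replicates 1 to 3. The highest and the lowest value were both in epiF3, and the groups overlapped throughout. The means were 4.68 ± 0.23 and 4.68 ± 0.29 (SD, n = 3 each), a change of -0.001 with a 95% interval from -0.44 to 0.44 (limma adjusted p = 0.999). Without epiF3 replicate 3 the change was 0.11. The interval of AT4G24450 overlaps that of PWD, -1.21 to -0.35, and no test of the difference between these loci was made.

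Fixation and starch breakdown genes were set against each other on each array by their mean signals relative to the wild-type mean of each gene. The starch breakdown side (PWD and DPE1) stood at -0.17, -0.22 and 0.39 on wild-type replicates 1 to 3 and at -0.59, -0.75 and -0.76 on epiF3 replicates 1 to 3. Breakdown minus fixation was -0.52, 0.02 and 0.50 on the wild-type arrays and -0.63, -0.76 and -0.55 on the epiF3 arrays. The groups were thus only just apart, since wild type replicate 1, where fixation genes were high, nearly reached the epiF3 values. The epiF3 mean was -0.65 ± 0.10 (SD, n = 3), against an SD of 0.51 around 0 in wild type.

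This contrast is a description, with no p-value, since it averages over genes proposed with results known. It also sets genes of unlike brightness against each other. On each array every fixation gene was brighter than at least 99.17% of plant probe sets, against 71.7% to 93.3% for PWD and DPE1. Whether compression near the top of the range affects the contrast was not tested. Leaving out wild type replicate 3 gave -0.40, and leaving out wild type replicate 1 gave -0.91. With both loci of the symbol PWD counted it was -0.41. With all 3 measured genes of the starch breakdown list, which adds the alpha-amylase gene AMY1, it was -0.31. AMY1 was dim, with signals between 4.06 and 4.93, near the array medians of 4.08 to 4.32. Whether AMY1 acts in the chloroplast beside PWD and DPE1 was not tested. The last pair of settings was chosen after seeing the data.

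**Figure D3:**
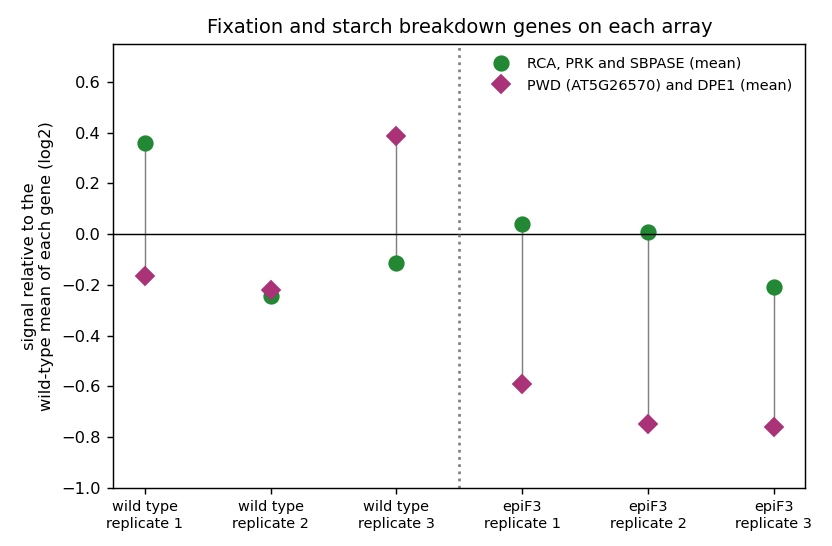
Mean log2 signal of the fixation genes (circles) and of PWD and DPE1 (diamonds) on each array, relative to each gene's wild-type mean, with a line joining both sides of an array. The diamonds lie between -0.22 and 0.39 on wild-type arrays and between -0.76 and -0.59 on epiF3 arrays, while the circles of epiF3 lie within the range of wild type.

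Other genes of the same pathways were taken from 6 lists of 107 entries, of which 20 besides the members were measured under a name. Here and for the lists below, measured means that a probe set names that gene alone. Other entries may have a probe set that carries no name or several names. None of these 20 passed an adjusted p of 0.05 in limma, and 4 of 20 had an unadjusted p under 0.05, against 10.9% of all probe sets. Changes were negative for 12 of 20, against 44.3% of all probe sets, with a median of -0.06, against a median of 0.03 over all probe sets. Groups did not overlap for 3 genes that were lower and 2 that were higher in epiF3. Over all probe sets these shares were 7.11% and 9.75%.

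Besides RCA, PRK and SBPASE, 3 of the 26 entries of the Calvin-Benson list were measured. AT5G64380 had signals of 5.97, 5.87 and 5.62 in wild type and 6.55, 6.23 and 6.07 in epiF3, higher on every epiF3 array, with a change of 0.46 and a limma adjusted p of 0.349. rbcL, the plastid gene of the large Rubisco subunit, overlapped between groups and had a change of -0.22 with a 95% interval from -0.68 to 0.23. The median of the 6 measured genes was -0.03, and their changes ranged from -0.22 to 0.46.

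Lists on Rubisco assembly and photorespiration had 4 measured genes each. In the assembly list, AT3G04550 was at 8.42 ± 0.09 in wild type and 7.98 ± 0.10 in epiF3, a change of -0.44, and AT5G28500 was at 9.21 ± 0.12 and 8.79 ± 0.15, a change of -0.42 (SD, n = 3 each). For both, the groups did not overlap, and limma adjusted p were 0.222 and 0.293. The other 2 genes of that list had changes of 0.14 and 0.20, the latter for AT3G48420, which was higher on every epiF3 array than on any wild-type array, by 0.02 at the nearest, so the list did not move in 1 direction. In photorespiration all 4 changes were negative, and their median was -0.19. AT1G80380 of that list was at 9.13 ± 0.03 in wild type and 8.72 ± 0.06 in epiF3, a change of -0.40 (limma adjusted p = 0.22), and AT1G11860 had a change of -0.22 with overlapping groups.

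Genes of starch synthesis overlapped between the groups, with 4 of 17 entries measured and a median change of -0.12. APL4, a large subunit of the ADP-glucose pyrophosphorylase that supplies starch synthesis, had a change of -0.19 (95% interval -0.51 to 0.12), and AT5G39790 one of 0.21 (-0.16 to 0.58). Signals of APL4 were low, between 3.04 and 3.47, below the array medians of 4.08 to 4.32. In the starch breakdown list 3 of 23 entries were measured. PWD and DPE1 had negative changes, and AMY1 had one of 0.32 (95% interval -0.26 to 0.90). Signals of AMY1 lay between 4.06 and 4.93, near the array medians, and whether it acts in the chloroplast was not tested. Genes that act with PWD and DPE1 in the chloroplast, such as the other glucan dikinase, the beta-amylases and the maltose exporter, are not analysed here. The list of sucrose synthesis and export had 4 of 16 entries measured and a median of 0.15. AT2G35840 had a change of 0.32 (95% interval -0.12 to 0.76), and SWEET11, a sucrose exporter, one of 0.18 (-0.15 to 0.52).

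**Figure D4:**
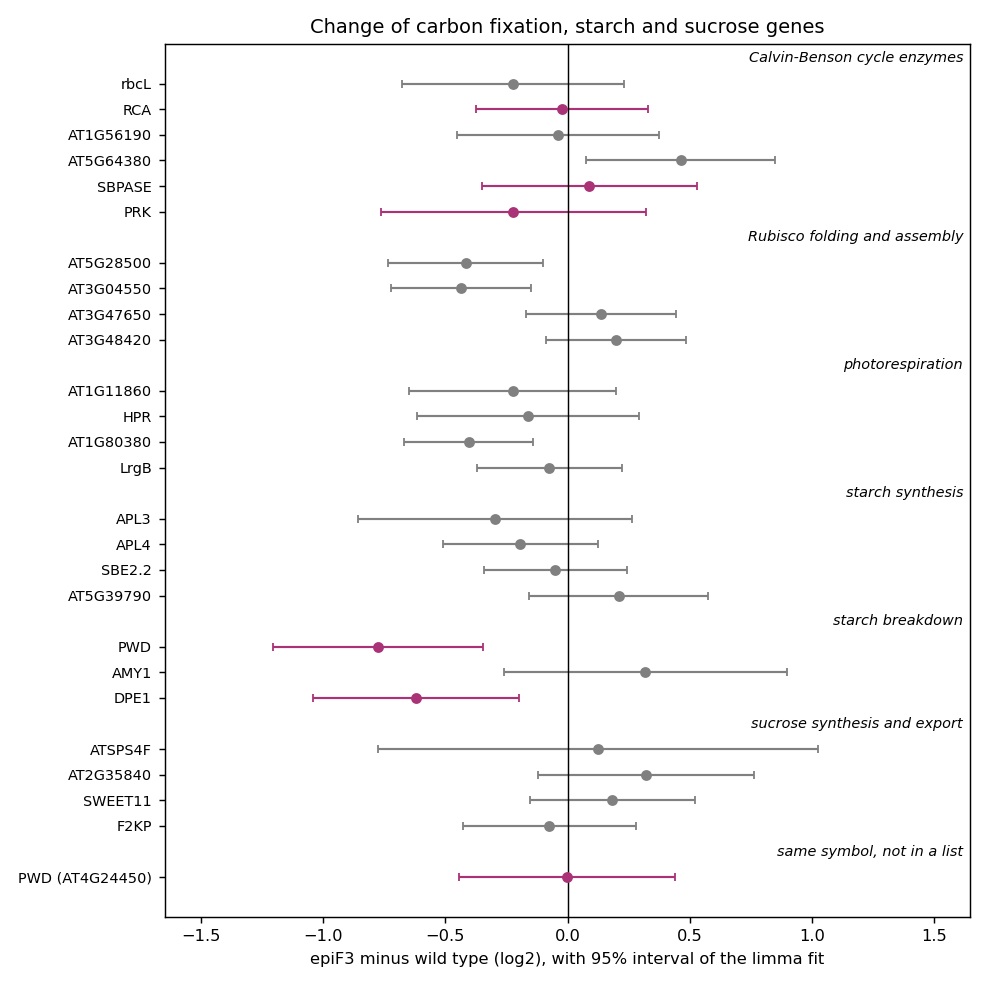
Change of the members (purple) and of the other measured genes of the 6 pathway lists (grey), as epiF3 minus wild type in log2 units on the horizontal axis, with the 95% interval of the limma fit. Each gene carries its symbol in the gene table, or its locus where that table gives no symbol. PWD (-0.78) and DPE1 (-0.62) lie farthest below 0, and the interval of PWD (AT4G24450) is centred on it.

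For each member, the pair of named probe sets with the most similar course over the 6 arrays was looked up among 13512. AT1G13930 was among the nearest for both PWD and DPE1, at a difference of 0.09 from each, with 10.35 ± 0.44 in wild type and 9.70 ± 0.13 in epiF3 (SD, n = 3 each). AT5G66590 was nearest to PWD, and AT2G28720 was the other close one for DPE1. Only 2 probe sets lay within 0.1 of PWD and 2 within 0.1 of DPE1. NdhS, a subunit of the chloroplast NADH dehydrogenase-like complex, and AT5G47800 were closest to PRK, both at 0.10. For RCA, whose signal varied little, 314 probe sets lay within 0.1, the closest being AQI and AT1G49980 at 0.03 and 0.04. For SBPASE 58 did, led by AT1G64680 and AT4G36420, and for PWD (AT4G24450) 51, led by AT5G37730 and AT4G03230.

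The genes that flank the members among measured genes on the chromosome, in the order of the TAIR10.1 gene table, were examined as well. None of the 12 flanking probe sets passed the limma threshold, and the smallest adjusted p among them was 0.157. The flanking changes ranged from -1.07 for AT5G64870, beside DPE1, to 0.55 for AT2G39725, beside RCA. The genes beside PWD, AT5G26360 and AT5G26740, had changes of -0.01 and 0.16.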

How the data were processed

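The values are log2 signals as the authors deposited them, 1 for each probe set on each array, made with RMA and the affy package per the submitters' processing notes, which give no versions. Background method, scan dates and batches: not given in the sources used here. From 22810 deposited probe sets, 64 array controls were set aside. The platform annotation gives 1 gene for 13513 probe sets, and symbols were taken through gene identifiers from the RefSeq table of TAIR10.1. Groups were compared over 22746 probe sets by limma 3.58.1 under R 4.3.3 (functions lmFit and eBayes, two-sided, no block, no filter on dim probe sets), with Benjamini-Hochberg adjustment and a threshold of 0.05. All 6 members stayed in when the dimmest 40% of probe sets were left out. The fit was run on simulated data with independent normal noise, no outlying array and known changes larger than those of the members. That run checks the code and does not show how the fit performs on these arrays. Python 3.11.15 with pandas 2.3.3 and matplotlib 3.10.9 made the tables and figures. Members, pathway lists and alternatives were chosen with earlier results of these data known. From each list the text names genes past the threshold, or the 2 with the smallest p, and for each member the 2 probe sets most alike; AMY1 and AT3G48420 were named beyond that rule, after their values were seen, as were the flanking genes. The limma p-values rest on the spread between 3 plants a group, moderated by eBayes towards that of all probe sets. With no moderation, the unadjusted p of the linear model was 0.0202 for PWD and 0.0370 for DPE1. The number of arrays limits the precision.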

Additional observations from a re-analysis of the deposited data

How the results depend on the processing

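Under 15 alternatives each, none of the 6 probe sets passed the limma threshold in any of 90 refits, and the smallest adjusted p was 0.0832, for PWD with array weights. PWD ran from -0.88 to -0.59 and DPE1 from -0.76 to -0.42, both negative in all 15. Most of these signs were fixed in advance. As the groups did not overlap, fits with 1 array left out or with array weights could only be negative. The dim filter, intensity trend, lack of moderation and replicate block leave the estimate itself unchanged. Under the normalizations and the covariate, which could change the sign, PWD ran from -0.79 to -0.71 and DPE1 from -0.76 to -0.55. RCA turned positive under median centring (0.048), quantile normalization (0.099), array weights (0.072) and the hybridization control covariate (0.16), and ran from -0.087 to 0.091 with 1 array left out. PRK ran from -0.44 to 0.016 and SBPASE from -0.026 to 0.30 with 1 array left out. PWD (AT4G24450) was at 0.070 under median centring, 0.048 under cyclic loess, 0.074 under quantile normalization, 0.094 with array weights, 0.10 with the covariate, and -0.17 to 0.13 with 1 array left out. Breakdown minus fixation (-0.65) ran from -0.91 to -0.40 with 1 array left out, was -0.41 with both loci named PWD and -0.31 with the whole measured breakdown list, and moved by less than its SD in epiF3 under the other settings. Among those, median centring could not move it, because it shifts all genes of an array alike. The 136 calls over all probe sets became 2 with no moderation, 449 with array weights, 24 with the covariate, 74 with the replicate block and between 33 and 402 without single arrays. What causes these shifts was not tested. Deviations from the group means were not shared by arrays of the same number (r of -0.077, -0.042 and -0.045 across probe sets), so the numbers were not taken to pair plants, and the block changed no member's side of the threshold.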
